A study of Mus musculus with 12 samples.

Results

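The interferon regulatory factors (Irf) are a family of transcription factors, and 8 of their genes, Irf1, Irf2, Irf3, Irf4, Irf5, Irf7, Irf8 and Irf9, were followed here through mouse natural killer (NK) cells before and after stimulation. They were taken by gene symbol from a table of 55487 features, and all 8 were present, each under 1 Ensembl identifier. All 8 were also high enough to be tested, which took at least 4 samples with a log2 CPM over 0. CPM is the reads of a gene per 1 M reads of its library, where M stands for mega.

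RNA-seq was done on 12 samples in 3 groups of 4. NK cells are lymphocytes that kill target cells and secrete cytokines. Every sample, the unstimulated controls included, came from strain B6.129S4-Ifngtm3.1Lky/J with the genotype mut/mut, a strain in which YFP, a yellow fluorescent protein, reports on the interferon gamma gene Ifng, and every title gives the priming as HD IL-15. The titles call the control group unstimulated, and no time is recorded for it. Time in culture and handling therefore cannot be told apart from stimulation in comparisons with this group. The YFP- and YFP+ groups received anti-NK1.1, an antibody against an activating NK receptor, for 6 h, and differ by whether the reporter was off or on. The labels do not give the mice's age, the organ or the sorting steps, and no group without the reporter allele or without IL-15 was analysed here. Samples carry the replicate labels f2, m2, m3 and m4 in each group, and nothing says whether samples came from separate mice or cultures. The p-values therefore measure the spread between these samples, which may be technical.

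Irf proteins bind a shared DNA element through a conserved DNA-binding domain. Irf3, Irf5 and Irf7 are switched on by phosphorylation downstream of nucleic acid sensors and Toll-like receptors. Irf9 is the DNA-binding subunit of the complex that carries type I interferon signals to the nucleus, Irf1 is induced by interferon gamma, and Irf2 competes with Irf1 for the same sites. Irf4 and Irf8 are the lymphoid and myeloid members, which bind DNA with partners such as PU.1 and Batf proteins. Irf4 follows antigen receptor signals in lymphocytes, and Irf8 takes part in NK cell responses to virus.

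The promoters of 4 genes are shown, of which Irf4 and Irf8 rose with stimulation while Irf1 and Irf7 were lowest in YFP+ cells. Irf5, which rose more than Irf8 in YFP- cells (2.15 against 1.37 in log2), is not shown. Each window runs from 250 bases before the annotated start to 50 after it, 5′ to 3′ on the gene's own strand, from RefSeq on GRCm38.p6. Irf4 lies at chr13:30748983-30749282 (+ strand), Irf8 at chr8:120736108-120736407 (+), Irf1 at chr11:53769764-53770063 (+) and Irf7 at chr7:141266375-141266674 (- strand). Capitals mark every match to 5 searched motifs.
Irf4: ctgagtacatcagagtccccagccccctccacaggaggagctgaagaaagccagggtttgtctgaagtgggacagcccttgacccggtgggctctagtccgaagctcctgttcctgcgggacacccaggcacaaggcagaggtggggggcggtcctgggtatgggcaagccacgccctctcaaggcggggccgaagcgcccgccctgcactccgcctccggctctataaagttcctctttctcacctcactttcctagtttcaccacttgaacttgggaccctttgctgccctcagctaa
Irf8: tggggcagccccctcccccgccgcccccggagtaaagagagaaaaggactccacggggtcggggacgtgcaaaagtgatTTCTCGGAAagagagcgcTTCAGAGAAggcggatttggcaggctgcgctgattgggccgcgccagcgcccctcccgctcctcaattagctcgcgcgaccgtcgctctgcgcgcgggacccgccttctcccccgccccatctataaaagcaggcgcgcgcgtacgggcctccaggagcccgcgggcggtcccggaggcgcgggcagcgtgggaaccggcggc
Irf1: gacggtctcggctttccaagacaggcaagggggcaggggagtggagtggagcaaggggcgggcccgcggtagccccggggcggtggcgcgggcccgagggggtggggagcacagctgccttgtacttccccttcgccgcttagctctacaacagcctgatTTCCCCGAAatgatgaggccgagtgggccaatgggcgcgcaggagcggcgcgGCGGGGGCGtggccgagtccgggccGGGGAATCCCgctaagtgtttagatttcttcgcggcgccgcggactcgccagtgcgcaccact
Irf7: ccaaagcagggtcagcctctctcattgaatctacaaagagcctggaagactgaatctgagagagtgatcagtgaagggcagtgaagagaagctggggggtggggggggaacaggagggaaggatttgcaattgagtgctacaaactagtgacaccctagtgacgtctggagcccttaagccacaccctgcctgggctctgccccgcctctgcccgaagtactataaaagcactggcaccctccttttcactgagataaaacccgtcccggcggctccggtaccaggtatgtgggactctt

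The motifs, searched on both strands, were the interferon gamma-activated element GAS (TTCNNNGAA), the Irf core AANNGAAA, the AP-1 site TGANTCA, the Egr site GCGNGGGCG and the NF-kappaB consensus. Irf8 held 2 GAS matches, at positions -171 to -163 and -153 to -145 with the start at 0, and Irf1 held 1 at -90 to -82. Irf1 also held an Egr match at -38 to -30 and an NF-kappaB match at -13 to -4. No match to any of the 5 was in the Irf4 or Irf7 windows, which says only that these letters are not there. Among all 8 members, GAS matched in 3, the Irf core in 1 (Irf2), AP-1 in 0, Egr in 2 and NF-kappaB in 2. In all 32851 promoter windows of the same length the shares with a match were 8.30% for GAS, 23.9% for the Irf core, 7.81% for AP-1, 5.55% for Egr and 8.46% for NF-kappaB. In Irf2 the Irf core matches overlap each other. A match is a string of letters, not a measured binding site.

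Library totals ran from 32.1 to 54.2 M reads, and 3 reads, taken as the smallest level that can be told from 0, corresponded to 0.0553 to 0.0933 CPM. All members lay far above that, the lowest count being 54 reads for Irf4 in an unstimulated library. The labelled cell type was checked against marker lists. The 12 NK markers in the table summed to 19624 to 23667 CPM in the unstimulated group, 22714 to 27530 among YFP- and 31925 to 44373 in YFP+ libraries. Gzmb, a granzyme, made up most of that rise, at 5121 to 6693 CPM before stimulation and 21073 to 28337 CPM in YFP+ libraries. The receptor gene Ncr1 went the other way, from 244 to 249 CPM down to 105 to 138 CPM, and Klrd1, Klre1, Eomes and Gzma were also lower in every YFP+ than in every unstimulated library. B cell markers summed to at most 4.38 CPM and neutrophil markers to at most 2.03, with S100a9 at 0 throughout. T cell markers, mostly Trbc1, summed to 379 to 412 CPM before stimulation, 523 to 597 CPM in the YFP- group and 548 to 680 CPM in the YFP+ group, so they were higher in both stimulated groups, as Irf4 was. Within that list Trac went from 6.83 to 8.47 CPM before stimulation to 40.4 to 54.5 CPM in YFP+ libraries, and Cd6 from 0.301 to 0.973 CPM to 8.20 to 36.1 CPM. Cd3g stood at 30.9 to 79.4 CPM before stimulation, 24.4 to 41.7 CPM in YFP- and 11.7 to 31.9 CPM in YFP+ libraries. These ranges overlapped. Cd3e, Cd4, Cd8a and Cd8b1 were at most 1.49, 0.184, 0.193 and 0.184 CPM. The part of T cell transcripts in the Irf values was not tested. Macrophage and dendritic cell markers are given beside the results they move with. Ribosomal RNA-like features took 27.4 to 35.3% of reads in the unstimulated group, 15.9 to 30.3% among YFP- and 13.7 to 29.8% in YFP+ libraries.

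**Figure D1:**
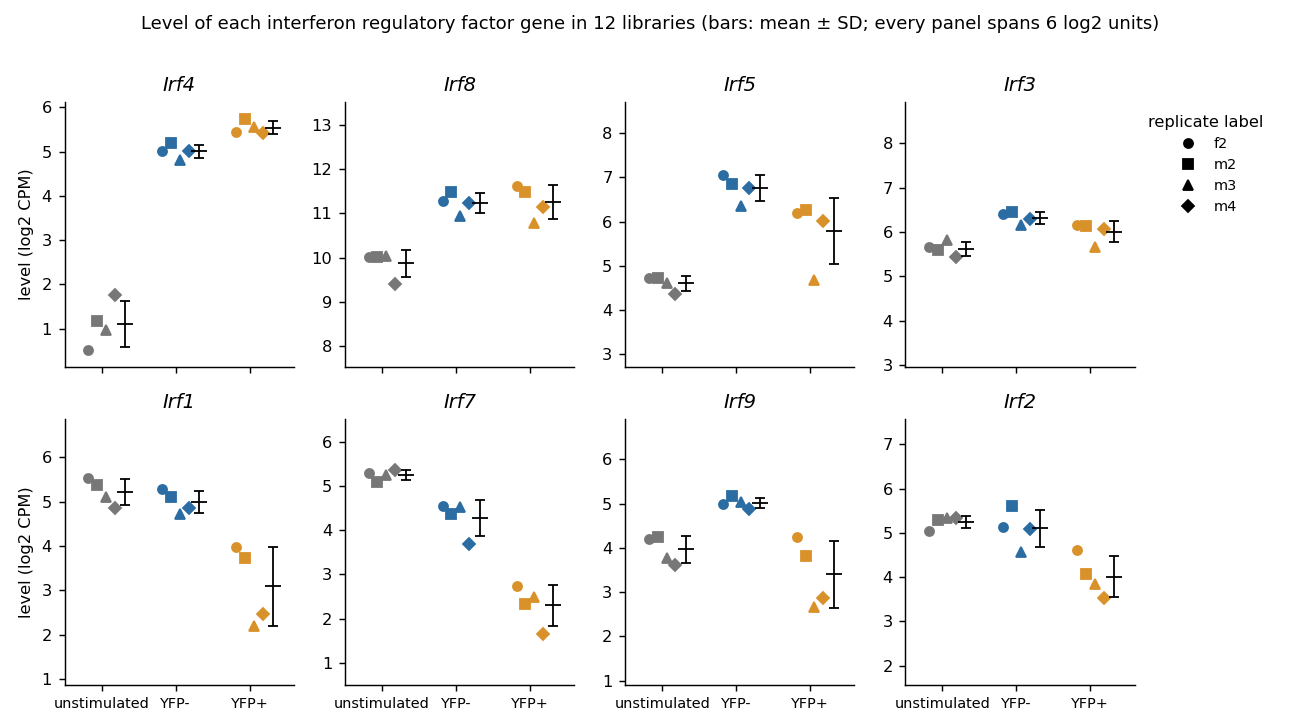
Level of each of the 8 genes in log2 CPM (vertical axis, every panel spanning the same range) in unstimulated, YFP- and YFP+ libraries. Points are single libraries with the marker giving the replicate label, and bars are the mean ± SD of 4. Irf4 climbs from the unstimulated to both stimulated groups, whereas Irf1 and Irf7 are lowest in YFP+.

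Irf4 was nearly silent before stimulation and was the member that rose most. Its level was 1.42 CPM (f2), 2.24 (m2), 1.96 (m3) and 3.36 (m4) in the unstimulated libraries, 32.5, 36.4, 28.2 and 32.1 CPM in the YFP- libraries in the same label order, and 43.3, 53.6, 47.0 and 43.1 CPM in the YFP+ libraries. The 3 groups did not overlap, and every YFP+ library was above every YFP- library. On the log2 CPM scale Irf4 rose by 3.90 ± 0.21 (SE) from unstimulated to YFP-, a 15.0-fold rise (limma, adjusted p = 2.5e-08), and by 4.44 ± 0.21, or 21.7-fold, from unstimulated to YFP+ (limma, adjusted p = 2.4e-09). The YFP+ to YFP- difference was 0.53 ± 0.21 (1.45-fold) and did not pass the limma test (adjusted p = 0.092). It did pass after trimmed-mean scaling, at 0.69 (limma, adjusted p = 0.030), and under 4 further settings given in the closing section.

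Irf8, which myeloid cells and NK cells both use, was abundant throughout and rose in both stimulated groups. Unstimulated libraries held 1041 (f2), 1032 (m2), 1044 (m3) and 683 CPM (m4). YFP- libraries held 2470, 2877, 1971 and 2416 CPM, and YFP+ libraries 3169, 2867, 1757 and 2257 CPM. Library m4 stood below the other unstimulated samples, and all 8 stimulated libraries lay above all 4 unstimulated ones. The rise was 1.37 ± 0.19 in log2 (2.58-fold) in YFP- and 1.39 ± 0.19 (2.62-fold) in YFP+ cells (limma, adjusted p = 6.5e-05 and 2.9e-05). Between YFP+ and YFP- the difference was 0.02 ± 0.19 (limma, adjusted p = 0.95), and the YFP+ range enclosed the whole YFP- range.

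Irf1, the interferon gamma-induced activator, was lowest in the cells that had the reporter on. Unstimulated libraries held 46.3 (f2), 41.7 (m2), 34.6 (m3) and 29.2 CPM (m4), and YFP- libraries 39.0, 34.3, 26.3 and 29.2 CPM. YFP+ libraries held 15.8, 13.1, 4.56 and 5.48 CPM, all below every library of the other groups. Irf1 was 3.75-fold lower in YFP+ than in YFP- cells (log2 difference -1.91 ± 0.34, limma, adjusted p = 0.0014) and 4.40-fold lower than in unstimulated cells (-2.14 ± 0.34, adjusted p = 1.0e-04). YFP- against unstimulated gave -0.23 ± 0.34 (adjusted p = 0.59), with overlapping ranges. The 4 YFP+ libraries fell into a higher pair, f2 and m2, and a lower pair, m3 and m4. The same pairs were apart in their share of ribosomal RNA-like reads, 13.7% and 16.3% in f2 and m2 against 29.8% and 23.1% in m3 and m4, and in their totals, 48.9 and 54.2 against 36.2 and 32.1 M reads. The part of these in the spread was not tested. Ifng itself was even across the same libraries, at 8.41, 8.36, 8.25 and 8.42 log2 CPM.

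Irf7, the amplifier of type I interferon production, stepped down from group to group. It stood at 39.0, 33.9, 38.1 and 41.2 CPM in the unstimulated libraries f2, m2, m3 and m4, at 23.4, 20.7, 23.1 and 12.8 CPM in the YFP- libraries and at 6.66, 5.01, 5.61 and 3.11 CPM in the YFP+ libraries. No group overlapped another. The falls were 1.95-fold from unstimulated to YFP- (log2 difference -0.96 ± 0.24, limma, adjusted p = 0.0039), 3.95-fold from YFP- to YFP+ (-1.98 ± 0.24, adjusted p = 7.9e-05) and 7.71-fold from unstimulated to YFP+ (-2.95 ± 0.24, adjusted p = 1.8e-07). Against unstimulated cells these were the largest falls among the members by log2 difference. Between YFP+ and YFP- cells the fall of Irf1 (-1.91) was close to it, and Irf1 had the larger fall without YFP+ library f2 (-2.20 against -2.13), without YFP+ library m2 (-2.12 against -1.99) or without YFP- library m3 (-2.0 against -1.90).

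Irf9, the DNA-binding subunit of the type I interferon complex, rose in YFP- cells and was lower in YFP+ than in YFP- cells. It was 18.4, 19.1, 13.8 and 12.3 CPM in unstimulated f2, m2, m3 and m4, 31.9, 35.9, 32.7 and 29.3 CPM in YFP- and 19.1, 14.1, 6.38 and 7.31 CPM in YFP+ libraries. Every YFP- library was above every library of the other groups, and f2 and m2 were again the higher YFP+ pair. Irf9 rose 2.07-fold in YFP- over unstimulated cells (log2 difference 1.05 ± 0.29, limma, adjusted p = 0.0089) and was 3.06-fold lower in YFP+ than in YFP- cells (-1.61 ± 0.29, adjusted p = 0.0016). YFP+ against unstimulated was -0.56 ± 0.29 (adjusted p = 0.11). That difference passed under 3 of 18 other settings. Among them were the fit without the YFP+ library f2, at -0.84 (limma, adjusted p = 0.0099), and the totals without ribosomal RNA-like features. The rise in YFP- did not pass without the filter on low values (limma, adjusted p = 0.085).

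Irf5 and Irf3, which sensors activate by phosphorylation, both rose with stimulation. Irf5 stood at 26.4, 26.6, 24.4 and 20.6 CPM in the unstimulated libraries f2, m2, m3 and m4. YFP- libraries held 133, 116, 81.5 and 108 CPM, and YFP+ libraries 73.3, 76.3, 25.7 and 64.9 CPM. YFP+ library m3 was within the unstimulated range, and the other 3 lay between the unstimulated and YFP- groups. Irf5 rose 4.43-fold in YFP- (log2 difference 2.15 ± 0.29, limma, adjusted p = 4.5e-05) and 2.27-fold in YFP+ cells (1.18 ± 0.29, adjusted p = 0.0029). It was lower in YFP+ than in YFP- by -0.96 ± 0.29 (adjusted p = 0.029). Without YFP+ library m3 that difference was -0.60 (limma, adjusted p = 0.020), and after trimmed-mean scaling it was -0.81 and did not pass (adjusted p = 0.054). It also did not pass without YFP- library f2 (adjusted p = 0.091), m2 (adjusted p = 0.074) or m4 (adjusted p = 0.060). A limma fit of only the 8 samples compared (adjusted p = 0.073) and one without the filter on low values (adjusted p = 0.22) lost it too. In all, 6 of 18 other settings lost this call.

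For Irf3 the unstimulated range was 43.2 to 56.2 CPM, the YFP- range 71.0 to 87.8 CPM and the YFP+ range 50.5 to 71.5 CPM, with m3 the lowest YFP+ library. YFP- cells were 1.63-fold higher than unstimulated cells (log2 difference 0.70 ± 0.14, limma, adjusted p = 8.7e-04), with no overlap. YFP+ cells were higher by 0.38 ± 0.14 (1.30-fold, adjusted p = 0.027) with overlapping ranges, a call that was lost under 7 of 18 other settings. YFP+ against YFP- was -0.32 ± 0.14 (adjusted p = 0.12), and it passed with ribosomal RNA-like features left out of the totals, at -0.33 (limma, adjusted p = 0.029).

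Irf2, the competitor of Irf1, was lower in YFP+ cells than in either of the other groups. Its ranges were 32.8 to 40.6 CPM in the unstimulated group, 23.8 to 48.8 CPM among YFP- and 11.5 to 24.6 CPM in YFP+ libraries. YFP+ cells were 2.13-fold lower than YFP- cells (log2 difference -1.09 ± 0.24, limma, adjusted p = 0.0050), although the highest YFP+ library, f2, was just above the lowest YFP- library, m3. They were 2.35-fold lower than unstimulated cells without overlap (-1.23 ± 0.24, adjusted p = 4.6e-04). YFP- against unstimulated was -0.15 ± 0.24 (adjusted p = 0.63). The call against YFP- cells was lost without the filter on low values (adjusted p = 0.055).

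**Figure D2:**
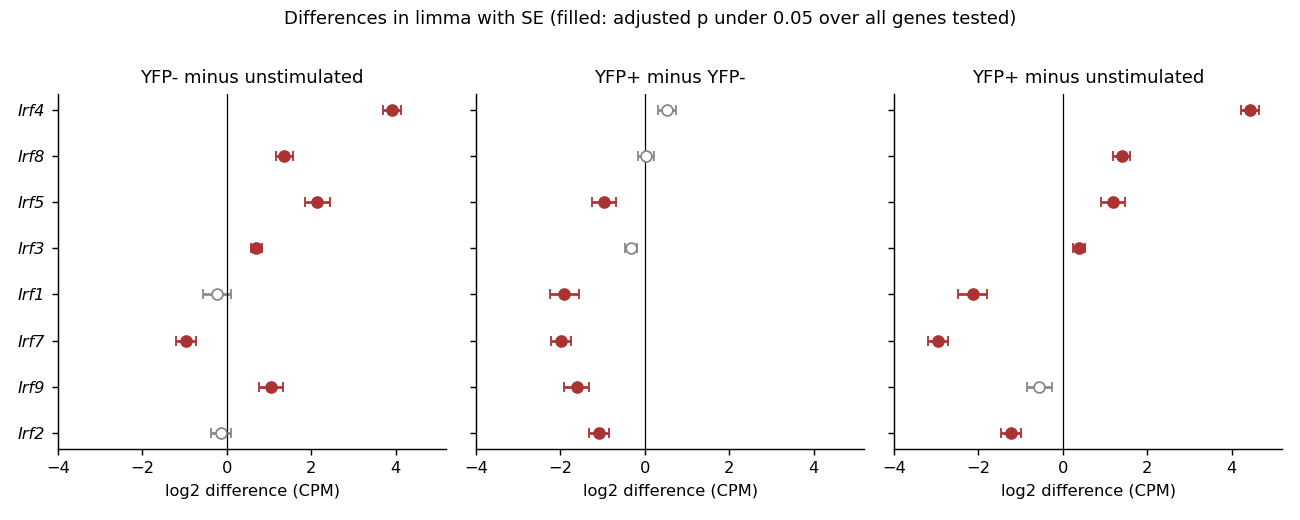
Difference in log2 CPM (horizontal axis) of each gene in the 3 comparisons, with the SE from limma as bars. Filled points have an adjusted p under 0.05 over all genes tested. Rises of Irf4, Irf8, Irf5 and Irf3 stand in both panels against unstimulated cells, and no filled point lies above 0 in the panel of YFP+ minus YFP-.

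Counted together, 5 members were higher in YFP- than in unstimulated cells, 1 was lower and 2 did not pass. Of the 12364 genes tested, 30.2% were called higher and 20.9% lower in this comparison. From unstimulated to YFP+, 4 were higher, 3 lower and 1 did not pass, against 27.5% and 33.3% of all genes. Between YFP+ and YFP- cells 0 were higher, 5 were lower (Irf1, Irf2, Irf5, Irf7 and Irf9) and 3 did not pass, against 3.28% and 18.5% of all genes. With trimmed-mean scaling that became 1 higher (Irf4) and 4 lower, against 8.22% and 13.5%. Groups did not overlap for 5 members between YFP+ and YFP- (22.1% of all genes), 6 between YFP- and unstimulated (52.7%) and 5 between YFP+ and unstimulated (54.7%). The comparisons share groups, so their counts are not separate evidence. Over all genes the median YFP+ to YFP- difference was -0.19 in the values as deposited, -0.04 after trimmed-mean scaling and 0.07 once each sample was centred on its median, and the share of all calls that were higher was 15.1%, 37.8% and 50.2% in turn. The median over the 8 members was -1.03, -0.87 and -0.77.

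Ratios within a library do not depend on how libraries are scaled. They set Irf4 and Irf8 directly against Irf1, Irf7 and Irf9, grouped here as interferon-induced. The grouping does not mean that interferon leaves Irf8 unchanged, and the Irf8 promoter window held GAS matches. The log2 ratio of Irf4 to Irf1 was -5.02 (f2), -4.21 (m2), -4.13 (m3) and -3.11 (m4) in unstimulated, -0.26, 0.09, 0.10 and 0.14 in YFP- and 1.45, 2.03, 3.36 and 2.97 in YFP+ libraries. Irf1 reads thus outnumbered those of Irf4 before stimulation, the genes were near parity in YFP- cells, and Irf4 exceeded Irf1 in all 4 YFP+ libraries. Irf4 to Irf7 moved by 4.87 from unstimulated to YFP- and by a further 2.52 to YFP+, and Irf4 to Irf9 by 2.85 and 2.14. The ratio of Irf8 to Irf1 rose by 1.60 and 1.93 over the same steps, that of Irf8 to Irf7 by 2.33 and 2.01, and that of Irf8 to Irf9 by 0.32 and 1.63.

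Of 18 tests (6 ratios in 3 comparisons), 17 had groups that did not overlap and gave a 2-sided exact permutation p = 0.0286, the smallest that 4 against 4 samples allow (adjusted over the 18 tests, p = 0.030). The exception was Irf8 to Irf9 between YFP- and unstimulated cells (exact permutation p = 0.057), where both genes rose. All 6 ratios were therefore higher in YFP+ than in YFP- cells, although neither Irf4 nor Irf8 passed that comparison alone. The rises of the Irf8 ratios at this step came with falls of Irf1, Irf7 and Irf9 and a difference of 0.02 in Irf8. The ratios share genes and the comparisons share groups, so the 17 results are not separate evidence. No share over other gene pairs was computed. Among single genes tested, groups did not overlap for 22.1% (YFP+ against YFP-), 52.7% (YFP- against unstimulated) and 54.7% (YFP+ against unstimulated).

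**Figure D3:**
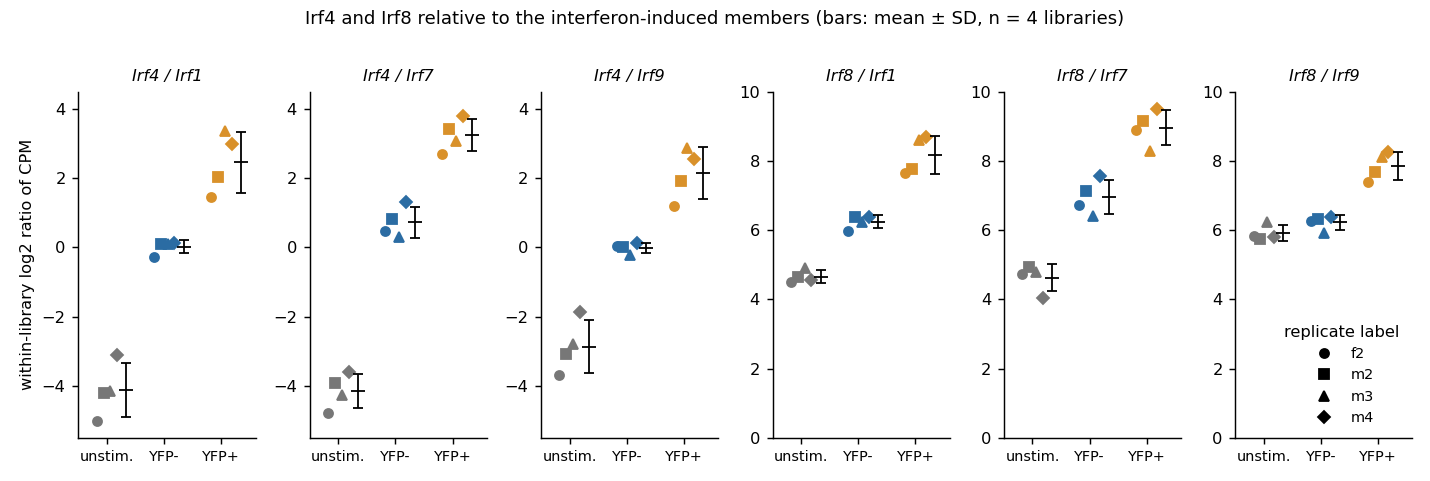
Within-library log2 ratio of Irf4 (left 3 panels) and Irf8 (right 3 panels) to Irf1, Irf7 and Irf9, with points for single libraries and bars for the mean ± SD of 4. All YFP+ points lie above all YFP- points in every panel, and the Irf8 to Irf9 panel alone has unstimulated and YFP- points that overlap.

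Per length, as CPM per kb of annotated exon, Irf8 was the most abundant member in every group and did not overlap the next gene. In unstimulated cells it stood at 135 ± 25.3 (SD, n = 4), followed by Irf3 at 14.4 ± 1.56. Irf7 (10.1), Irf1 (9.54) and Irf5 (8.43) came next, each overlapping its neighbour, then Irf2 (5.16), Irf9 (2.95) and Irf4 last at 0.457 ± 0.167. In YFP- cells Irf8 was at 345 ± 52.6, Irf5 at 37.7 ± 7.40 and Irf3 at 23.4 ± 2.13, with no overlap, while Irf1 (8.10), Irf4 (6.59), Irf9 (6.02), Irf7 (5.30) and Irf2 (4.80) overlapped neighbour by neighbour. In YFP+ cells Irf8 was at 356 ± 89.3, Irf5 at 20.7 ± 8.06 and Irf3 at 18.8 ± 2.85, the last pair overlapping. Irf4 had moved to the fourth place at 9.54 ± 1.0, clear of its neighbours on both sides, and Irf1 (2.45), Irf2 (2.27), Irf9 (2.17) and Irf7 (1.35) overlapped below it. The exon models come from GENCODE M21 on GRCm38, so the order also depends on which transcripts are annotated.

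**Figure D4:**
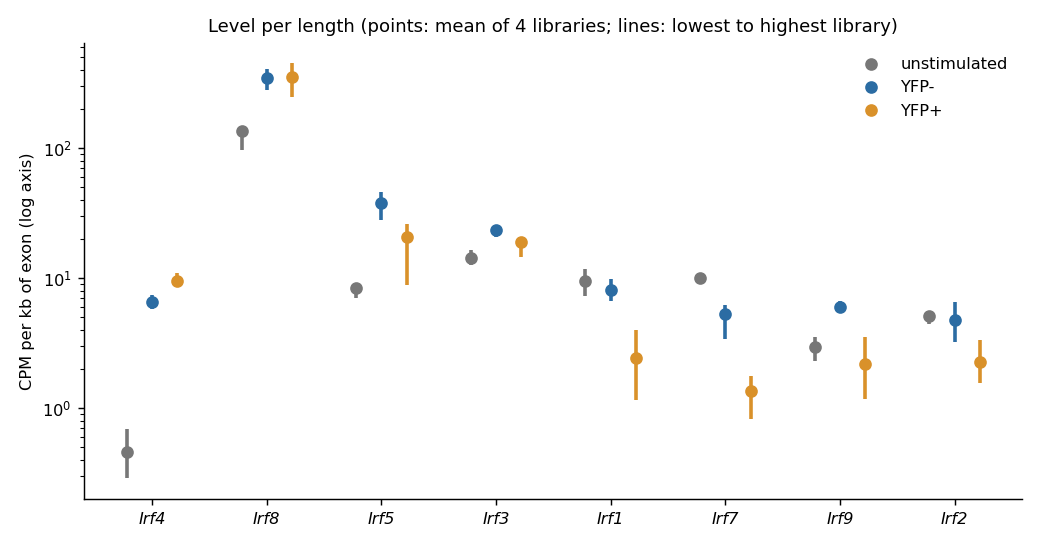
Level of each gene in CPM per kb of exon on a log axis, with the mean of 4 libraries as points and lines from the lowest to the highest library. Irf8 lies above all other members in each group, and Irf4 is the lowest in unstimulated cells.

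Neighbouring genes limit some of these values, because the library kit does not mark strand and the strand setting used in counting is not given in the sources used here. Irf5 shares 14.1% of its exonic bases with Tnpo3 on the opposite strand, which had 608 to 1147 reads per library against 667 to 5905 for Irf5. Shared parts were 3.40% for Irf1 (Gm17334), 2.56% for Irf3 (Bcl2l12), 2.28% for Irf9 (Rnf31, same strand) and 1.19% for Irf7 (Phrf1). Irf4 had no overlapping gene, and for Irf2 and Irf8 the overlapping genes shared 0 exonic bases.

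The genes that feed the family were read from lists of known pathway members. Their counts stand beside the shares of all genes tested given above, 30.2% higher and 20.9% lower in YFP- and 27.5% and 33.3% in YFP+ against unstimulated cells, and 3.28% and 18.5% in YFP+ against YFP- cells. Ifng, on which the reporter sits, was the only interferon gene tested. It rose by 3.53 ± 0.13 in log2 from unstimulated to YFP- (limma, adjusted p = 5.3e-10) and was higher by 2.86 ± 0.13 in YFP+ than in YFP- cells (adjusted p = 7.6e-08), a difference that separating cells by the reporter selects for. The other 20 interferon genes had at most 6 reads in any library.

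Of 12 tested genes for interferon receptors, Janus kinases, STATs and their inhibitors, 0 were higher and 9 lower in YFP+ than in YFP- cells (list median -0.68). The largest falls were in Ifngr1, the ligand-binding chain of the interferon gamma receptor (-2.33 ± 0.47, limma, adjusted p = 0.0031), and Usp18, a brake on type I receptor signalling (-1.18 ± 0.37, adjusted p = 0.036). With trimmed-mean scaling 5 of these were lower. From unstimulated to YFP-, 2 rose and 5 fell, the rises being the kinases Jak2 (1.25) and Tyk2 (0.40 ± 0.15, limma, adjusted p = 0.037). That became 1 rise and 6 falls with ribosomal RNA-like features left out of the totals, and the same with samples centred on their medians. Among the 5 falls in the values as deposited were the kinase inhibitor Socs1 (-0.89) and Il10rb (-0.87), a receptor chain shared by interferon lambda and IL-10. Against unstimulated cells YFP+ cells had 1 rise (Jak2, 1.13) and 8 falls, led by Ifngr1 (-3.29) and Il10rb (-1.87).

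Sensors and kinases that act on Irf3, Irf5 and Irf7 were mixed, with 16 tested. YFP- cells had 4 rises and 4 falls against unstimulated cells, near the shares of all genes. The kinase Ikbke, which phosphorylates Irf3 and Irf7, rose by 1.65, as did the mitochondrial adaptor Mavs by 1.47, while the nucleic acid sensors Zbp1 (-1.46) and Ddx58 (-0.85) fell. YFP+ cells had 0 rises and 5 falls against YFP- cells, led by Ikbke (-2.17 ± 0.31, limma, adjusted p = 3.1e-04) and Sting1, the adaptor for cytosolic DNA (-1.64 ± 0.19, adjusted p = 7.3e-05). Against unstimulated cells they had 2 rises, Mavs (1.15) and Traf3 (0.98), and 8 falls, among them Zbp1 (-2.61) and Dhx58 (-2.39). The Mavs rise was near the threshold (SE 0.47, limma, adjusted p = 0.047). Its YFP+ range of 12.4 to 67.8 CPM overlapped the unstimulated range of 9.86 to 14.5 CPM. These counts became 1 rise and 9 falls with ribosomal RNA-like features left out of the totals, and 3 and 8 with trimmed-mean scaling.

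Among partners of Irf4 and Irf8, Batf3 was switched on from near silence. Batf3, an AP-1 factor that pairs with both, averaged 0.326 CPM in unstimulated cells, 13.8 CPM in YFP- cells and 15.6 CPM in YFP+ cells, a rise of 5.31 ± 0.36 and 5.59 ± 0.36 in log2 (limma, adjusted p = 1.6e-07 and 3.1e-08). Of 10 tested partners and corepressors, 4 rose and 1 fell in YFP- cells, Junb rising by 1.20 and Ikzf1, a zinc finger factor, falling by 0.35. Against unstimulated cells YFP+ cells had 4 rises, Junb by 0.66 among them, and 4 falls. Against YFP- cells they had 0 rises and 2 falls, in Jun (-1.14) and Ikzf1 (-0.40), and 1 fall with trimmed-mean scaling. Both numbers are near the share of all genes. Against unstimulated cells the YFP- counts became 3 rises and 3 falls with ribosomal RNA-like features left out of the totals, and the YFP+ rises 2.

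NF-kappaB and NFAT subunits, which carry receptor signals to Irf genes, had 8 genes tested. YFP- cells had 4 rises, led by Relb (2.92) and Nfkb2 (2.78), and 2 falls, in Nfatc2 (-1.18) and Nfatc3 (-1.0). YFP+ cells had the same numbers against unstimulated cells, led by Rel (2.52), Nfkb2 (2.27), Nfatc2 (-1.88) and Nfatc3 (-1.59). Relb (-0.92) and Nfatc2 (-0.69) were among 3 falls and 0 rises from YFP- to YFP+. All 7 regulators that work with or against Irf4 and Irf8 in lymphocytes were tested. Bcl6 (2.15) and Bach2 (1.23), repressors of effector programmes, were among 3 that rose in YFP- cells, and Prdm1 (-2.41), the repressor Blimp-1, and Nfil3 (-1.92) were the 2 that fell. In YFP+ against YFP- cells Zbtb32 rose (1.16 ± 0.29, limma, adjusted p = 0.012), while 3 fell, including Tcf7 (-2.80 ± 0.21, adjusted p = 3.2e-06) and Bach2 (-1.85 ± 0.17, adjusted p = 1.4e-05). Against unstimulated cells 2 rose, Bcl6 (1.55) and Zbtb32 (1.32), and 5 fell, led by Nfil3 (-2.53) and Prdm1 (-2.15).

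Genes downstream of the interferon-induced members were mostly lower in YFP+ cells. Among 22 tested targets of interferon gamma and Irf1, 19 were lower and 0 higher in YFP+ than in YFP- cells, with a list median of -1.43 against -0.19 for all genes. Cxcl10, a chemokine, fell (limma, adjusted p = 0.0013) from 3.94 to 4.95 CPM in YFP- to 0.0409 to 0.801 CPM in YFP+ libraries, the lowest under the limit of 3 reads, after rising by 2.82 from unstimulated to YFP- cells. Tgtp1, a guanosine triphosphatase, fell by 3.75 (SE 0.41, adjusted p = 4.4e-05), but reads of Tgtp1 and its close copy Tgtp2 may be split between them. From unstimulated to YFP-, 5 rose and 5 fell, a number of falls near the share of all genes. Among the rises was Tapbp, a peptide-loading factor, close to the threshold (1.19 ± 0.45, limma, adjusted p = 0.041). Nlrc5 (-1.69), the class I transactivator, and the immunoproteasome subunit Psmb9 (-1.52) were among the falls. From unstimulated to YFP+, 0 rose and 17 fell, among them Tgtp2 (-3.81) and Ciita, the class II transactivator, which stood at 1.36 to 2.54 CPM before stimulation and at 0.0276 to 0.461 CPM in YFP+ libraries. The lowest of these is under the limit of 3 reads, so no fold is given for Ciita. The mean level of the 22 in the YFP+ libraries f2, m2, m3 and m4 was 2.96, 2.99, 2.16 and 2.10 log2 CPM, the same higher and lower pairs as for Irf1, and 3.99 to 4.62 in YFP- libraries.

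Of 19 tested type I interferon-stimulated genes, 13 were lower and 1 higher in YFP+ than in YFP- cells (list median -1.05). Oas3, a sensor of double-stranded RNA, fell (limma, adjusted p = 0.012) from 0.609 to 1.31 CPM in YFP- to 0 to 0.442 CPM in YFP+ libraries, Rtp4 fell by 3.16 (SE 0.24, adjusted p = 3.5e-06), and the exception was the virus tether Bst2 (0.41 ± 0.13, adjusted p = 0.034), with 0 higher once ribosomal RNA-like features were left out of the totals. With trimmed-mean scaling 10 were lower and 1 higher, and of the interferon gamma targets 18 were lower and 0 higher. From unstimulated to YFP- cells 2 rose, Mx1 (1.29) and Ifi35 (0.49), and 5 fell, led by Samhd1 (-1.75) and Sp100 (-1.19), a number of falls near the share of all genes. From unstimulated to YFP+ 0 rose and 14 fell, among them Rtp4 (-4.05) and Oas3, for which 0 reads in 1 or more YFP+ libraries leave the size of the fall dependent on the prior. With trimmed-mean scaling 2 rose and 11 fell in that comparison.

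**Figure D5:**
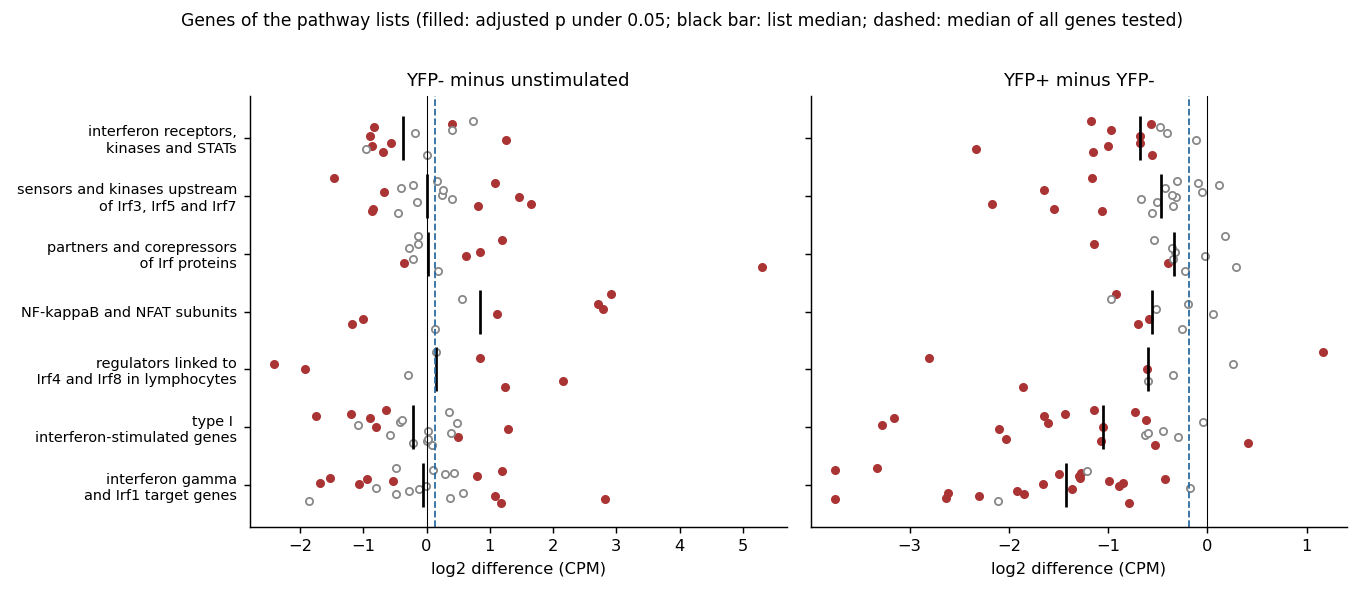
Difference in log2 CPM of every tested gene of 7 pathway lists between YFP- and unstimulated cells (left) and between YFP+ and YFP- cells (right). Filled points have a limma adjusted p under 0.05, black bars are list medians and the dashed line is the median of all genes tested. On the right, 19 of 22 interferon gamma and Irf1 targets are filled and to the left of 0.

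Irf8, Irf1 and Irf7 are also expressed in macrophages and dendritic cells, so markers of these cells were set beside them. The 8 macrophage and monocyte markers summed to 53.4 to 60.3 CPM in the unstimulated group, 27.4 to 44.7 among YFP- and 14.8 to 24.1 in YFP+ libraries, nearly all of it Cd68, with Adgre1 at most 0.0308 CPM. The 10 dendritic cell markers summed to 91.2 to 121, 84.2 to 103 and 28.0 to 35.7 CPM, mostly H2-Ab1 and Cd74. The members of the dendritic list moved in different directions. H2-Ab1 went from 80.9 to 94.7 CPM before stimulation to 20.9 to 31.4 CPM in YFP- libraries. Higher in YFP- than in unstimulated libraries, as Irf8 was, were Cd74 (5.80 to 17.3 against 33.6 to 44.2 CPM), Zbtb46 (1.33 to 1.76 against 13.3 to 17.4 CPM) and Xcr1 (0.828 to 1.84 against 3.85 to 6.18 CPM). In YFP+ libraries Zbtb46 stood at 5.19 to 11.3 CPM, while Cd74 (9.31 to 11.6 CPM) and Xcr1 (1.41 to 2.18 CPM) overlapped their unstimulated ranges. Flt3, Clec9a and Siglech were at most 0.184, 0.123 and 0.0608 CPM. Both sums were lowest in the YFP+ libraries, as Irf1 and Irf7 were. The part of these markers in the Irf values was not tested. Fewer cells with a transcript and less of it per cell cannot be told apart in these bulk samples.

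The genes whose levels over the 12 samples were most like those of a member were found among 10169 protein-coding genes by Pearson correlation of log2 CPM, given as a description because the samples share the 3 groups. For Irf4 they were the chemokine gene Ccl1 (r = 0.993), Cd63 (0.992) and Cd9 (0.992). For Irf8 they were Nolc1 (0.997), Nars (0.995) and Shmt2 (0.993). For Irf7 they were Ifi206 (0.991), the immunoproteasome subunit gene Psmb10 (0.991) and Cdca3 (0.989), and for Irf1 the antiviral deaminase gene Apobec3 (0.990), Nuf2 (0.990) and Neil3 (0.987). Ccl1 averaged 32.2 CPM in unstimulated libraries, 6840 CPM in YFP- libraries and 10837 CPM in YFP+ libraries, the same order of groups as Irf4. Nuf2, a kinetochore protein, was at 17.0, 16.1 and 3.56 CPM, lower in the YFP+ group like Irf1.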

How the data were processed

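RNA-seq was measured in 12 samples of mouse NK cells. The libraries used the SMARTer Ultra Low kit on 10 ng of RNA, per the labels' protocols. STAR 2.7.9a, featureCounts 2.0.3 and GRCm38 are named in the submitters' processing notes, and the annotation and strand setting are not given in the sources used here. The authors' deposited values are moderated log2 CPM in 1 table, per the file headers, and any scaling between libraries is not stated there. Of its 55774 lines, 287 repeated an earlier identifier and were dropped. Whole reads followed from the deposited values for 100% of values within 0.01 of a read, with a prior of 0.517 reads at the mean library total. Library totals were the sums of these reads, and with them the deposited values were reproduced to within 5.2e-14 in log2. The deposited values thus hold no further scaling between libraries. No molecular identifiers are named, so the limit of 3 reads covers counting error only. Ribosomal RNA-like features were 359 features of the rRNA biotypes with Lars2, Mir6236 and Gm23935.

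Genes had to exceed a log2 CPM of 0 in 4 or more samples, and the 12364 that did were fitted in limma 3.58.1 (R 4.3.3) over the 12 samples, with 1 coefficient per group and an intensity trend. Benjamini-Hochberg adjustment ran over all genes tested, and an adjusted p under 0.05 was called. The fit was tested on simulated data. Ratios were compared by a 2-sided exact permutation test over 70 splits. Python 3.11.15 with pandas 2.3.3, numpy 2.4.6 and scipy 1.17.1 served for the rest. Per-length levels used exons of GENCODE M21. From each list the text names up to 2 rises and 2 falls per comparison among called genes, and the 3 genes most like Irf4, Irf8, Irf7 and Irf1. The members and lists were chosen with earlier results of these data known. The alternatives were the replicate block, a fit of the 8 samples compared, other filters, pseudocounts, scalings and spreads, and leaving out each library.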

Additional observations from a re-analysis of the deposited data

Results flagged for a closer look

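Within groups of 4 libraries, 4 of 42 sets of values had a lowest or highest library whose gap to its neighbour, as a share of the group's range, exceeded Dixon's 95% limit for 4 values. Chance gives about 1 in 20, or 2.1 sets. Irf5 in YFP+ libraries had a gap of 0.852, from library m3 at 4.68 log2 CPM against 6.02 to 6.25 in the other 3. Irf8 in unstimulated libraries had a gap of 0.974, from library m4 at 9.42 log2 CPM against 10.01 to 10.03. The log2 ratio of Irf4 to Irf1 in YFP- libraries had a gap of 0.877, with f2 lowest at -0.26. The log2 ratio of Irf8 to Irf9 in unstimulated libraries had a gap of 0.871, with m3 highest at 6.24.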

How the results depend on the processing

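Of 24 member differences, 15 kept their direction and their side of the threshold under all 18 alternatives each, and of 432 values 404 did so, 15 lost a call, 9 gained one and 4 changed sign. The sign changes were in uncalled differences. Irf8 between YFP+ and YFP- ran from -0.10 to 0.18 when single libraries were left out (-0.10 without YFP+ f2, -0.05 without YFP+ m2, -0.07 without YFP- m3), and Irf2 between YFP- and unstimulated ran from -0.31 to 0.031, the latter without YFP- m3. Without the filter, members called between YFP+ and YFP- numbered 3 in place of 5, with 1583 genes called in all in place of 2691 among more genes tested. Irf4 passed that comparison in limma with a pseudocount of 1 CPM (adjusted p = 0.040), with trimmed-mean scaling (0.030), with centring (0.014), with voom weights (0.0027) and in a fit of the 8 samples (0.029), and its adjusted p was 0.092 as reported. The log2 ratio of Irf4 to Irf7 moved to 4.32 (YFP- against unstimulated) and 6.62 (YFP+ against unstimulated) with a pseudocount of 1 CPM. Unstimulated Irf4 stood at 1.42 to 3.36 CPM. An addition of 1 CPM raises its log2 level more than that of unstimulated Irf7, at 33.9 to 41.2 CPM. Samples with the same replicate label had correlated deviations of 0.05, 0.35, 0.37 and 0.17 (f2, m2, m3, m4) between YFP+ and YFP-, where 6 of 8 samples correlated best with their own label, and from -0.06 to 0.38 in the comparisons with unstimulated cells, where 2 of 8 (YFP-) and 4 of 8 (YFP+) did. Not every pair exceeded 0.1 and the labels do not say what a shared replicate label stands for, so the samples were not treated as paired. The fit with the replicate block called 3098, 6682 and 7774 genes for YFP+ against YFP-, YFP- against unstimulated and YFP+ against unstimulated, in place of 2691, 6321 and 7522, and it added Irf9 in the last (adjusted p = 0.043). The ratio results, 18 in all, changed sign in 0 of their alternatives. Depth did not limit the members, but the number of libraries limits the precision.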
